A study of Mus musculus with 4 samples.

Results

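The transcripts of the mitochondrial genome were taken from 2 lists of N6-methyladenosine (m6A) peaks of the newborn mouse heart, as all peaks whose gene symbol begins with mt-, all of which lie on chromosome MT. This gave 3 of 20766 peaks in the control list and 4 of 21179 peaks in the knockout list, or 7 of 41945 in all. They belonged to mt-Nd2, mt-Nd5 and mt-Nd6, which encode subunits of respiratory complex I. RNA came from hearts of 4-day-old Wtapflox/flox mice (control, 7 mice pooled) and Wtap-CKO mice (knockout, 8 mice pooled), and for each genotype RNA pulled down with an anti-m6A antibody (IP) and the unselected RNA (input) were sequenced. The titles of the knockout samples carry the abbreviation WBKO, while their genotype label reads Wtap-CKO and the list they refer to is marked WCKO; the genotype label was followed. The allele name denotes Wtap, a subunit of the m6A methyltransferase complex, flanked by loxP sites, and CKO a conditional knockout. The sources used here name no Cre driver and so do not say in which cells Wtap was deleted. With 1 library in each of the 4 groups, differences between genotypes were not checked in replicates and not tested, and intervals cover counting error only.

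The mitochondrial genome is transcribed from both strands into long precursors that are cut mainly at the tRNAs between the other genes. The precursor of one strand, listed as plus, carries most messenger RNAs and both ribosomal RNAs. That of the other strand, listed as minus, carries mt-Nd6 and some tRNAs. These RNAs are made, processed and translated inside the mitochondrion, while the complex that holds Wtap is known for methylating transcripts of nuclear genes in the nucleus. A MeRIP-seq peak is a stretch where fragments of about 100 nt are enriched in the IP over the input. The authors' caller gives each peak a fold, the IP over input ratio, and a log10 p, which becomes more negative with a larger fold and with more reads. Read counts are not part of the lists, and the libraries' depth is therefore unknown. In RNA of whole hearts, fewer cells of a type and less RNA per cell cannot be told apart.

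Heart muscle markers carried peaks in both lists (7 of 7 genes, Myh6 and Tnnt2 among them), as did fibroblast (3 of 3) and endothelial markers (3 of 3). Erythroid markers did so for 1 of 3 genes in each list and immune markers for 0 of 3. A peak shows that a transcript was called as enriched and gives no level of that transcript.

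Of the 37 genes of the mitochondrial genome, as counted in a RefSeq table, 2 carried peaks in both genotypes (mt-Nd2 and mt-Nd5), 0 in the control alone, 1 in the knockout alone (mt-Nd6) and 34 in neither. Over all 12182 genes with a peak in either genotype, 77.6% had one in both, 10.5% in the control alone and 11.9% in the knockout alone. All 3 mitochondrial genes with a peak were among the 7 that encode subunits of complex I, which passes electrons from NADH to ubiquinone. The other complex I genes, mt-Nd1, mt-Nd3, mt-Nd4 and mt-Nd4l, had no listed peak. Neither did the 6 messenger RNAs of the other complexes. These are mt-Cytb of complex III, mt-Co1, mt-Co2 and mt-Co3 of cytochrome c oxidase, and mt-Atp6 and mt-Atp8 of ATP synthase. The ribosomal RNA genes mt-Rnr1 and mt-Rnr2 and the 22 tRNA genes had none either. The lists give called peaks only, so a gene without one may have been under the authors' threshold or not examined by the caller.

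The positions of the peaks are those of mouse build GRCm39. mt-Nd2 (ENSMUSG00000064345, plus strand), which lies between the tRNA genes for methionine and tryptophan, carried 2 peaks in each list. In the control list they spanned 3914 to 4092 and 4773 to 4951 of chromosome MT. In the knockout list they spanned 3914 to 4121 and 4744 to 4951. mt-Nd5 (ENSMUSG00000064367, plus strand), whose neighbours are a leucine tRNA gene and mt-Nd6, carried 1 peak in each list, at 11742 to 11951 in the control and 11742 to 11981 in the knockout. mt-Nd6 (ENSMUSG00000064368, minus strand) carried 1 peak, at 13581 to 14070, in the knockout list. All 7 peaks had a single block, and none was overlapped by another peak of its own list on either strand. Where in the coding or untranslated sequence they lie was not analysed here.

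**Figure D1:**
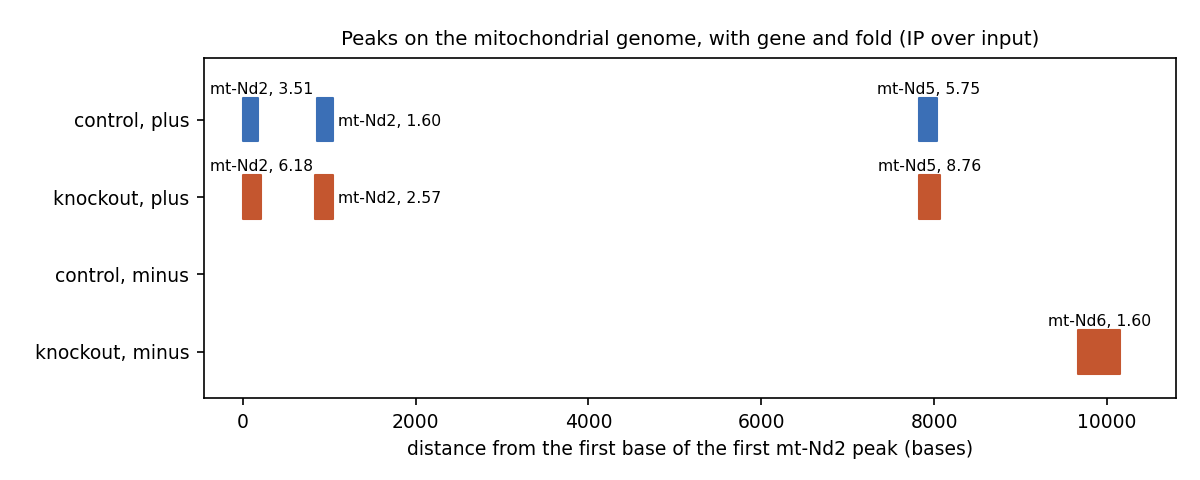
Position of the mitochondrial peaks, as the distance in bases from the first base of the first mt-Nd2 peak (horizontal axis), with a row for each list and strand; bars are peaks drawn to scale, labelled with the gene and the authors' fold (IP over input, no replicates). The 3 plus-strand peaks of the control list each overlap a knockout peak and share an edge with it, and the minus-strand peak of mt-Nd6 appears in the knockout row alone.

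On the plus strand, each of the 3 control peaks lay wholly inside a knockout peak. They covered 568 control and 656 knockout bases, and all 568 control bases (100%) were also under a knockout peak. Over all peaks, 71.0% of the control bases were. None of the 3 control peaks therefore lacked a knockout counterpart (0%, exact 95% interval 0 to 70.8%), against 23.9% of all control peaks. Of the 4 knockout peaks, 1 lacked a control counterpart (25%, 0.63 to 80.6%), against 24.5% of all knockout peaks. Both intervals contain the share over all peaks, but with so few peaks they are wide. They also take peaks as independent, although mt-Nd2 held more than 1 in each list. Those shares come mostly from weaker peaks, as the median log10 p of the knockout list was -8.71. By bases, 49.6% of the 1146 mitochondrial knockout bases, mt-Nd6 included, were under a control peak. Over all peaks it was 75.3% of the knockout bases.

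The plus-strand peaks shared 1 edge between the lists and differed at the other. Whether the shared edges are ends of the annotated genes was not examined, so nothing is read from their being shared. The first mt-Nd2 peak began at the same base in both lists and ended 29 bases later in the knockout list. The second mt-Nd2 peak ended at the same base in both lists and began 29 bases earlier in the knockout list. The stretch of mt-Nd2 between its peaks was 680 bases long for the control and 622 for the knockout. The mt-Nd5 peak began at the same base and ended 30 bases later in the knockout list. All 3 pairs were thus wider in the knockout list, as were 42.2% of the 13227 pairs of a control and a knockout peak of a gene that overlapped only each other. Pairs with 1 block each that shared 1 edge and were 29 or 30 bases wider in the knockout list, the pattern of all 3 mitochondrial pairs, made up 6.59% of these. That pattern was described after its values were seen.

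**Figure D2:**
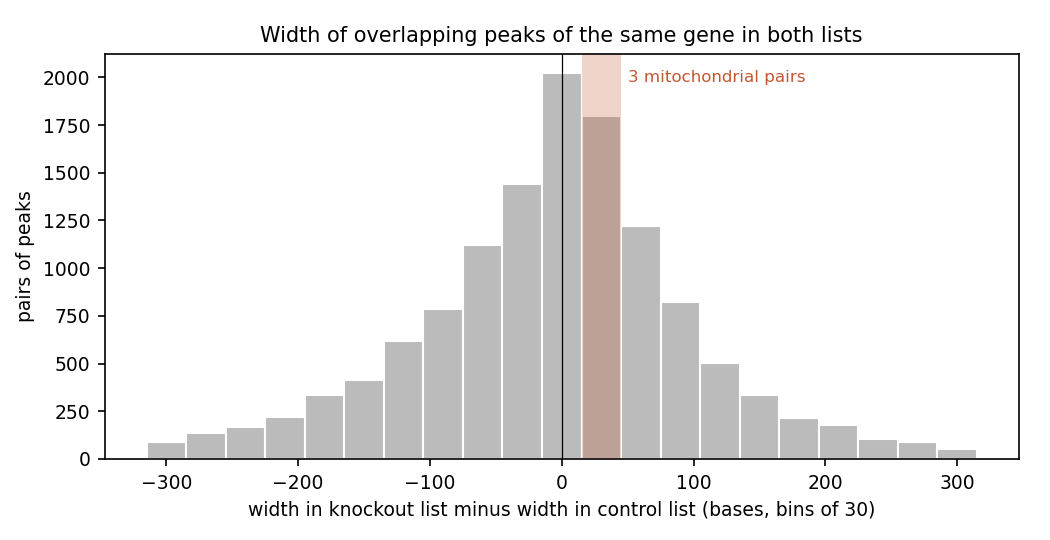
Width in the knockout list minus width in the control list (horizontal axis, bases, bins of 30) for pairs of overlapping peaks of the same gene (vertical axis, number of pairs); 12663 pairs are drawn and 564 with larger differences are not. The shaded bin holds the 3 mitochondrial pairs, at 29, 29 and 30 bases, together with other pairs, 1797 in all, and lies just right of the tallest bin.

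The peaks were narrow except for that of mt-Nd6. In the control list the widths were 179 bases for both mt-Nd2 peaks and 210 bases for mt-Nd5, all below the median of that list (270). In the knockout list they were 208 bases for both mt-Nd2 peaks and 240 for mt-Nd5, again below the median (241). The mt-Nd6 peak was 490 bases wide, and 83.1% of the knockout peaks were narrower. It began 1599 bases after the end of the mt-Nd5 peak, so the peaks on the different strands did not meet.

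Folds of the mitochondrial peaks were low to middling within each list. In the control list, mt-Nd5 had a fold of 5.75, higher than 40.5% of all peaks of the list. The first mt-Nd2 peak had 3.51 (higher than 20.5%) and the second 1.60 (higher than 1.03%). All 3 were below the median of the control list, 7.22. In the knockout list, mt-Nd5 had a fold of 8.76, higher than 57.9% of all peaks and above the median of 7.03. The first mt-Nd2 peak had 6.18 (higher than 44.6%), the second 2.57 (higher than 10.2%) and mt-Nd6 1.60 (higher than 1.09%). In both lists the fold of mt-Nd5 was thus the highest and that of the first mt-Nd2 peak exceeded that of the second. The folds of the lists come from separate calls of unknown scaling, so the higher values in the knockout list are not read as a change.

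By p-value the same peaks were among the strongest of each list. All 7 had a log10 q listed as minus infinity, as had 203 control and 197 knockout peaks in all. In the control list, mt-Nd5 (log10 p -5480) had the second smallest p of 20766 peaks, and the mt-Nd2 peaks (-2000 and -771) ranked 7 and 41. In the knockout list, mt-Nd5 (-9520) ranked 5 of 21179, the second mt-Nd2 peak (-5090) 7, the first (-5000) 8 and mt-Nd6 (-824) 54. The order of the mt-Nd2 peaks by p therefore differed between the lists, while their order by fold did not. Over all peaks the median log10 p was -10.2 for the control and -8.71 for the knockout.

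Fold and p were set side by side by comparing each mitochondrial peak with the peaks of its own list whose fold lay within 10% of its own, a comparison chosen after the data were seen. The mitochondrial peak had the smallest p in 6 of 7 cases. For the second control peak of mt-Nd2 there were 346 peaks in the window, itself included, with a median log10 p of -4.71, and the next smallest was that of Mybpc3, a sarcomere gene (-224). For mt-Nd6 there were 349, with a median of -4.88, and the next was the predicted pseudogene Gm10039 (-132). The exception was mt-Nd5 in the knockout list, where Myh6, the myosin heavy chain gene of the adult mouse heart, came first (-16500). Peaks with a fold under 2 made up 3.8% of control and 4.06% of knockout peaks. In each list a single one of them had a q of minus infinity, the second peak of mt-Nd2 in the control and the peak of mt-Nd6 in the knockout.

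**Figure D3:**
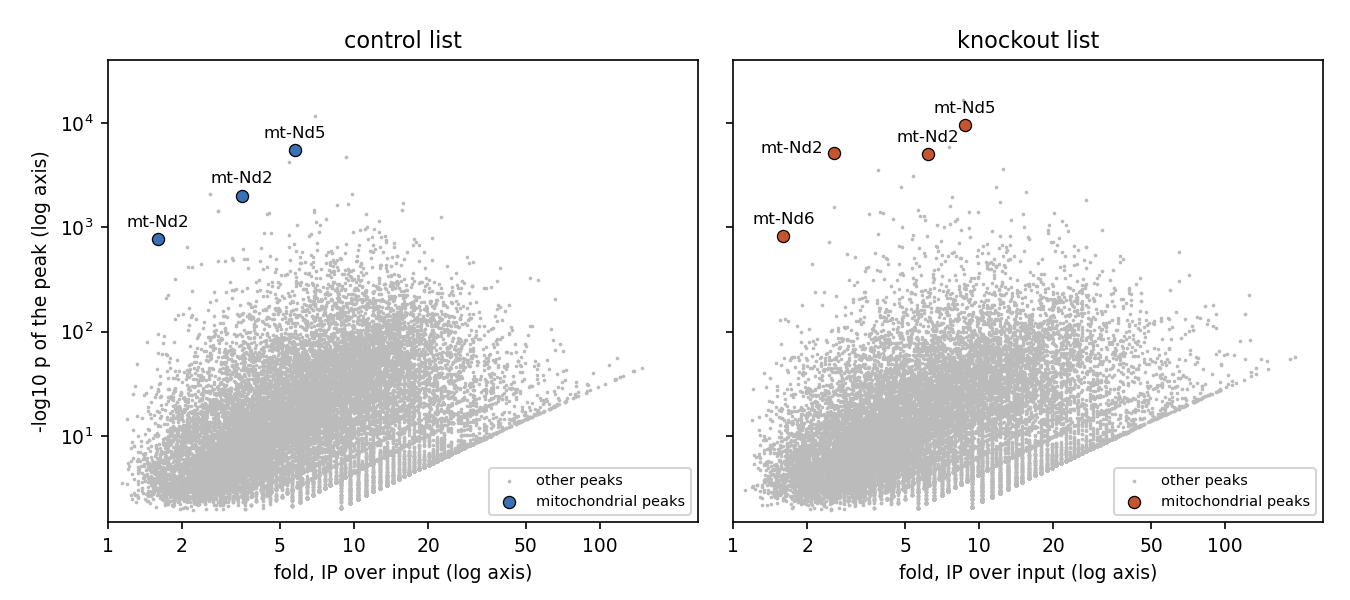
Fold (horizontal log axis, IP over input) against the size of log10 p (vertical log axis) for every peak of the control list (left) and the knockout list (right); large points are the mitochondrial peaks and small grey points all others, and 3 knockout peaks whose log10 p is minus infinity are not drawn. The mitochondrial points lie along the upper left edge of both clouds, with mt-Nd5 at log10 p -5480 in the control and -9520 in the knockout.

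mt-Nd6 encodes the complex I subunit whose messenger RNA alone comes from the minus-strand precursor. Its peak had the smallest p of the 5180 knockout peaks without a control counterpart. No control peak overlapped it on the plus strand either. Its low fold places it near the bottom of the knockout list by enrichment, and it is not counted when a fold of at least 2 is required. In the control list no minus-strand base of the mitochondrial genome was under a peak, against 490 in the knockout list. The strand is the one listed for the peak. Whether the reads under it were separated by strand was not examined, so they are not assigned to a precursor here.

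Parts of the mitochondrial genome exist as near-identical copies in the nuclear genome, and the sources used here do not say how reads were assigned between copies. Of 7 predicted genes listed as possible copies, 0 had a peak in either list. The predicted genes Gm10221 (fold 1.67, log10 p -125) and Gm10039 (fold 1.63, log10 p -132) had minus-strand peaks in the knockout alone. They were looked at because earlier results of these data had placed them beside mt-Nd6, so nothing is read from their likeness to it, and whether their sequence resembles the mitochondrial genome was not tested here.

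The enzymes that make, cut, modify and degrade mitochondrial RNA are encoded in the nucleus. Of 49 such genes, 31 carried peaks in both genotypes, 9 in the control alone, 2 in the knockout alone and 7 in neither. Of the 42 with a peak this is 73.8%, 21.4% and 4.76%, beside 77.6%, 10.5% and 11.9% of all genes with a peak. Of their 64 control peaks, 27 had no knockout counterpart (42.2%, exact 95% interval 29.9 to 55.2%), against 23.9% of all control peaks, and 12 of their 49 knockout peaks had no control counterpart (24.5%, 13.3 to 38.9%), against 24.5% of all. Without Fastkd5, whose listed control peaks overlap each other in part, it was 22 of 57 control peaks (38.6%, 26.0 to 52.4%). This was counted after seeing the data. The intervals take peaks as independent, although some genes held several unmatched control peaks, so they may be too narrow. The median fold of their peaks was 6.25 for the control and 5.31 for the knockout. Their median log10 p was -12.2 and -8.47, beside -2000 and -5045 for the mitochondrial peaks.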

How the data were processed

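RNA pooled per genotype (300 µg in all, per the labels' protocols) was incubated with the antibody for 2 h and sequenced with 150-base paired reads. Per the series' design text, the authors used exomePeak 2.16.0 to call peaks of each IP over the matching input, keeping those with q up to 0.05. The submitters' processing notes also list HOMER 4.9.1, BWA 0.7.12, fastp 0.19.11 and build GRCm39, without roles. The score column as deposited is a p-value per peak. Its log10 and that of q, also given by the authors, were treated as a score because some are minus infinity. The authors' fold, a linear IP to input ratio, served to describe peaks and to rank them among those of the same genotype. Starts were written counting from 1.

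The comparison used pandas 2.3.3, numpy 2.4.6 and scipy 1.17.1 under Python 3.11.15, and matplotlib 3.10.9 for figures. A peak had a counterpart when it shared 1 exonic base or more, on its own strand, with a peak of the other genotype. Overlap code was tested on simulated peaks. Shares have exact (Clopper-Pearson) 95% intervals. A RefSeq table of GRCm38.p6 gave gene names, kinds and neighbours only (all 49 nuclear symbols matched). The members and lists were chosen with earlier results of these data known. Named were all mitochondrial genes with a peak, the possible nuclear copies, and, of the nuclear list, the 3 genes with most peaks and up to 3 control-only and 3 knockout-only genes of smallest q.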

Additional observations from a re-analysis of the deposited data

How the results depend on the processing

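Of 44 alternative values, 39 kept within 1.5 times the count, or at the same median. Many of these could not differ. Every mitochondrial peak had a single block, a log10 q of minus infinity and no overlap with other peaks of its list. With a fold of at least 2, 0 minus-strand bases of the knockout list were covered in place of 490, and 0 genes in place of 1 had a peak in the knockout list only, since the mt-Nd6 peak falls below that limit. The same limit left 2 of the 3 control peaks, without the second peak of mt-Nd2. With 1 peak per gene, the median fold of the mitochondrial peaks was 4.63 in place of 3.51 in the control list and 2.57 in place of 4.38 in the knockout list, since fewer peaks entered and, in the knockout list, the mt-Nd2 peak of smaller p was that of lower fold. At a log10 q of -10 or lower, 16 nuclear genes in place of 31 had peaks in both lists, 12 in place of 9 in the control list only and 3 in place of 2 in the knockout list only, while the mitochondrial counts were as before. Requiring 50% of the shorter peak, ignoring strand or matching by gene gave the same number of mitochondrial peaks without a counterpart. This followed from the positions given above. Each control peak lay inside a knockout peak of its gene, and mt-Nd6 had no control peak on either strand. No paired analysis was possible because each group held 1 library. Without read counts, the effect of depth on these calls could not be measured.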

Other observations

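The nuclear genes for mitochondrial RNA were divided by role after their values were seen. Among genes for processing, stability and decay, 16 of 28 control peaks had no knockout counterpart (57.1%, exact 95% interval 37.2 to 75.5%), against 7 of 27 (25.9%, 11.1 to 46.3%) among genes for modification and 4 of 9 (44.4%, 13.7 to 78.8%) among genes for transcription, beside 23.9% of all control peaks. Of the 16, 5 lay in Fastkd5, and without it 11 of 21 control peaks of processing genes had none (52.4%). The intervals again take peaks of a gene as independent. In the knockout list the counts without a control counterpart were 4 of 17, 7 of 26 and 1 of 6, in the same order (23.5%, 26.9% and 16.7%), beside 24.5% of all knockout peaks.

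Of the 9 genes with peaks in the control list only, the 3 of smallest q follow. Fastkd2, which encodes an RNA-binding protein of the mitochondrial ribosome's assembly, had a peak with a fold of 5.67 and a log10 q of -24.9 (chromosome 1, 63770841 to 63771260). Trmt61b, which encodes a methyltransferase of mitochondrial tRNA and rRNA, had one with a fold of 13.4 and a log10 q of -12.4 (chromosome 17, 71905302 to 71905571). Mettl15, which encodes a methyltransferase of the small mitochondrial ribosomal RNA, had one with a fold of 5.92 and a log10 q of -11.9 (chromosome 2, 108923240 to 108923540). The others were named after their values were seen. Mettl8 (log10 q -11.8) was close to Mettl15, and Fastkd1 had -8.03. Tbrg4 (-2.84), Mterf1b (-2.31), Mterf1a (-2.22) and Nsun4 (-2.1) were weak. The 2 knockout-only genes were Prorp, the nuclease of mitochondrial RNase P, with a fold of 14.1 and a log10 q of -2.61, and Mterf3, a transcription regulator, with 9.38 and -1.44.

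Fastkd5, an RNA processing gene, had the most peaks of the list, 7 in the control and 2 in the knockout. Pus1, a pseudouridine synthase gene, had 3 in each list, all with a counterpart. Trmt5, a tRNA methyltransferase gene, had 3 in the control and 2 in the knockout.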
